A study of Mus musculus with 2 samples.

Results

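Keratin genes were compared between the heads of newborn mice of 2 genotypes that differ in the parental origin of parts of Chr 2 and Chr 9. The members were all probe sets whose only platform gene symbol is Krt followed by digits and an optional letter, so keratin-associated proteins and other names that begin with Krt were left out. That rule gave 61 of the 45101 probe sets on each array, for 48 of 18193 genes. All 48 belong to the keratin family by symbol, 25 of them type I and 23 type II, and they were grouped as suprabasal skin (5 genes), basal (3), oral mucosa (6), simple epithelium (5), hair (22) and other keratins (7).

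Both genotypes were offspring of mice that carry the T11H reciprocal translocation between Chr 2 and Chr 9. In the MatDp(dist2) newborn, the part of Chr 2 distal of the breakpoint was a maternal duplication and the distal part of Chr 9 a paternal one. In the PatDp(dist2) newborn, distal Chr 2 was paternal and distal Chr 9 maternal. RNA of the whole head was hybridised on 1 array per genotype, and a mouse with both parental copies of these parts was not analysed here. Whether each sample was 1 animal or a pool, and its sex and strain background, are not stated in the labels. None of the keratin genes lies on Chr 2 or Chr 9: 24 lie on Chr 11 and 24 on Chr 15.

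Keratins are the intermediate filament proteins of epithelial cells. Each filament is built of pairs of an acidic type I and a basic type II keratin, and the pair in use changes with the layer and the epithelium. Basal cells of the epidermis make Krt5 and Krt14, cells that leave the basal layer turn on Krt1 and Krt10, wet mucosa of the mouth uses Krt4 and Krt13, glands and other simple epithelia use Krt8 and Krt18, and the hair follicle has sets of its own for the shaft and the inner root sheath. The hair coat of a newborn mouse has not yet emerged from the skin.

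Values are the authors' deposited signals, a fluorescence intensity on a linear scale. Both arrays carried a scaling to the same trimmed mean. Signals below a floor of 187, about the middle of all signals, were treated as not measured, and a gene with 1 array below the floor has only a bound, the brighter signal over the floor ("at least N-fold"). Where a pair of signals is given, that of MatDp(dist2) comes first. With 1 array per genotype no difference could be set against replicate spread or tested, so precision is limited by the number of arrays. Whole head RNA cannot tell a smaller amount of an epithelium from less keratin RNA in each of its cells. At or above the floor were 51.6% of all probe sets in MatDp(dist2) and 48.3% in PatDp(dist2). Markers of several tissues of the head were present: all 8 neuron genes, 8 muscle genes and 9 fibroblast genes listed were at or above the floor in both heads.

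Keratins of skin, mouth and hair had higher signals in MatDp(dist2), and keratins of simple epithelium had lower ones. Of 39 keratin genes measured on at least 1 array, 14 were at least 2-fold higher in MatDp(dist2), which is 35.9%, against 4.43% of the 12483 genes measured. In the other direction 0 of the 39 were 2-fold apart, against 3.47% of all genes. The median log2 ratio of MatDp(dist2) over PatDp(dist2) was 0.66 for keratins and 0.02 for all genes measured. Of the 39, 34 were higher in MatDp(dist2) (87.2%, against 52.0% of all genes), and 4 of the other 5 were the measured keratins of simple epithelium. The fifth was Krt42, with a MatDp(dist2) signal of 1047.9 and a PatDp(dist2) signal of 1062.0. Of the 34, 16 passed the floor in MatDp(dist2) alone, which fixes their direction. Among keratins measured on both arrays, 18 of 23 were higher there (78.3%, against 50.1% of all genes so measured).

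Much of the count came from genes seen on 1 array. Of the 14 genes, 7 were at or above the floor in both heads and 7 have bounds. All 16 keratins seen on 1 array were seen in MatDp(dist2), as were 844 of all 1213 such genes (69.6%). Among the 23 keratins measured on both arrays, 7 were higher by 2-fold or more in MatDp(dist2), against 3.73% of the 11270 genes measured on both. The count rested on the scaling and the floor: centring each array on its median gave 9 keratins higher and 1 lower, where all genes gave 345 higher and 763 lower instead of 553 and 433. With the floor at the 70th percentile it was 5 of 24 keratins measured (Krt1, Krt10, Krt13, Krt4 and Krt6a), against 2.95% of 9032 genes. The plot of keratins among all genes shows where they lie.

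**Figure D1:**
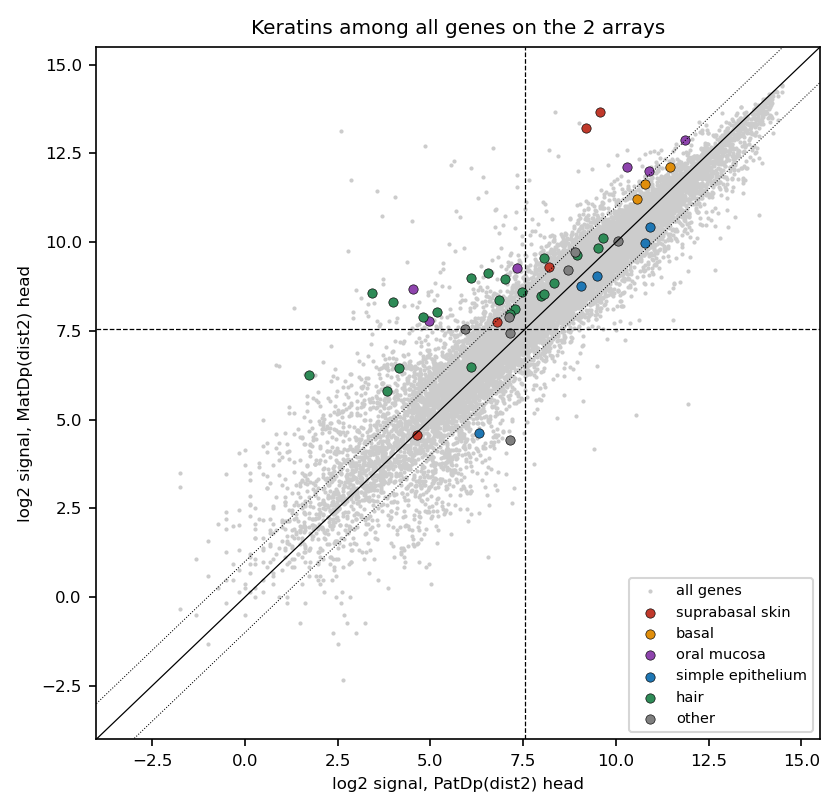
Log2 signal in PatDp(dist2) (x axis) against log2 signal in MatDp(dist2) (y axis) for all 18193 genes (grey) and the 48 keratins, coloured by group; the solid line marks equal signals, the dotted lines 2-fold, the dashed lines the floor of 187. Krt1 and Krt10 lie far above the upper 2-fold line, and the 4 measured keratins of simple epithelium lie below the line of equal signals.

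**Figure D2:**
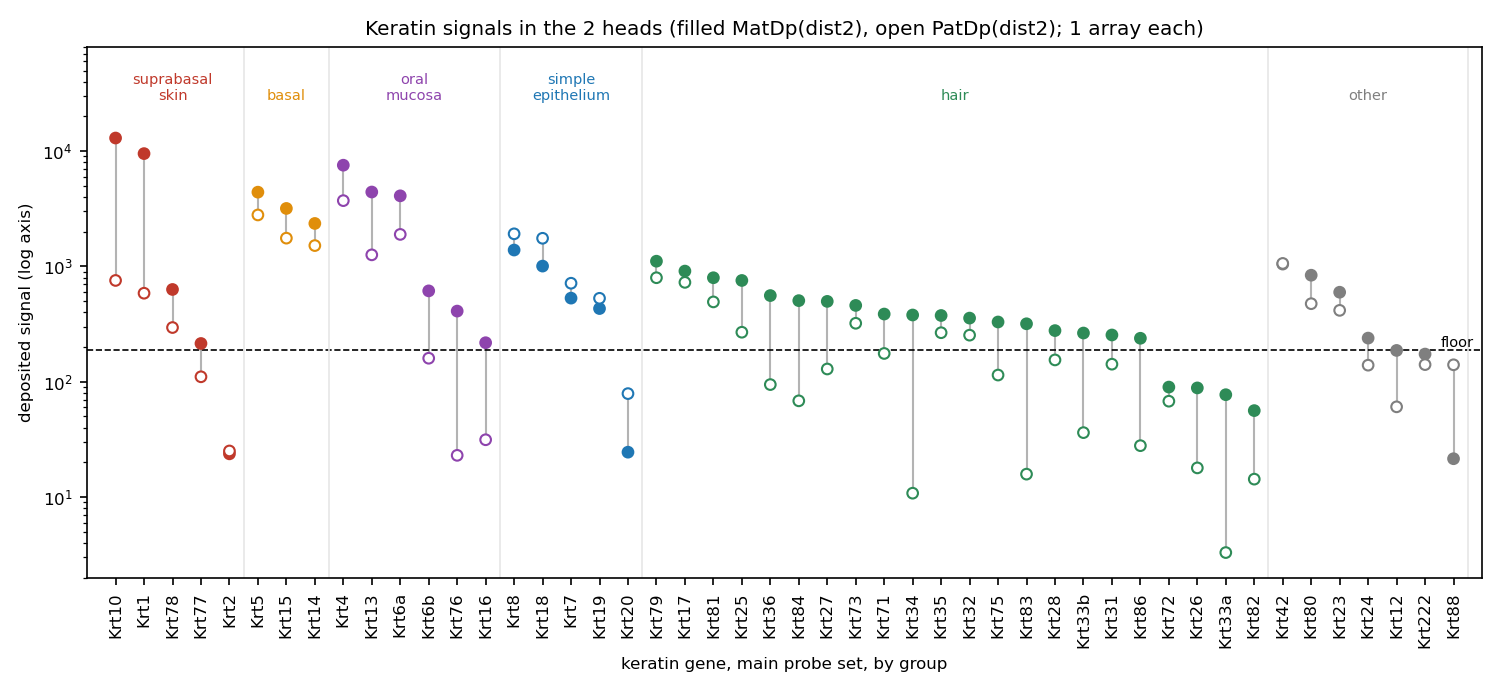
Deposited signal (y axis, log scale) of the brightest probe set of each of the 48 keratin genes (x axis, by group), filled points for the MatDp(dist2) head and open points for the PatDp(dist2) head, 1 array each; the dashed line is the floor of 187. The filled point lies above the open one for 40 of the 48 genes, the exceptions being all 5 keratins of simple epithelium, Krt2, Krt42 and Krt88.

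The suprabasal keratins of skin held the largest differences of the family. Krt10, the type I keratin of the spinous and granular layers, had a MatDp(dist2) signal of 12992.7 and a PatDp(dist2) signal of 755.9, a 17.2-fold difference. Krt1, its type II partner, had 9518.5 and 585.8, 16.2-fold. Both were measured in both heads and far apart, and their log2 ratios, 4.10 and 4.02, differed by 0.08. Among the 11270 genes measured on both arrays, they ranked 4 and 6 for the ratio. The single probe set of Krt10 has the suffix _a_at, which Affymetrix gives to sets that read several transcripts of a gene.

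Other suprabasal keratins differed less. Krt78, a type II keratin of stratified epithelia, had a MatDp(dist2) signal of 631.4 and a PatDp(dist2) signal of 295.2, 2.14-fold, but it was under 2-fold with the floor at the 70th percentile, the loess fit, median centring, the offset of 100 and quantile normalization. For Krt77, with 214.7 and 110.4, the bound was only 1.15-fold. Krt2, a keratin of the upper layers of thick epidermis such as that of ear and sole, lay below the floor in both heads, at 23.7 and 25.1. So 3 of the 4 measured genes were at least 2-fold higher in MatDp(dist2) (4.43% of all genes were). The median log2 ratio of 2.56 lies between the values of Krt1 and Krt78. Without the probe sets whose suffix marks shared sequence or several transcripts, Krt10 drops out and the median is 1.10, and with the floor at the 70th percentile it is 4.02.

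To show the sequence context of genes that move together, stretches of 120 bases just before the annotated start site are given from RefSeq's promoter table (build GRCm38.p6, 5′ to 3′ on the gene's strand), for a few members of each group. Capitals mark 3 short motifs read on that strand: TATAAA, the TATA box, its variant ATAAAAG, and TGANTCA, the motif of AP-1. Krt1 and Krt15 have no window in that table. Other suprabasal stretches, not printed, differ from that of Krt10: that of Krt78 has ATAAAAG, as has that of Krt5. Those of Krt2 and Krt77 hold none of the 3 motifs. The first set holds Krt10 and the basal pair Krt5 and Krt14.
Krt10, chr11:99389365-99389484, - strand: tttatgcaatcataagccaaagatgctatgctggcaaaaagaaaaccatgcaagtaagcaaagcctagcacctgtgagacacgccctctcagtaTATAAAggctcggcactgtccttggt
Krt5, chr15:101712906-101713025, - strand: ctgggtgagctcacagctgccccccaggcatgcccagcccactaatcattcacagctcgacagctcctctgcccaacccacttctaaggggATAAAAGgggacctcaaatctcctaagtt
Krt14, chr11:100206031-100206150, - strand: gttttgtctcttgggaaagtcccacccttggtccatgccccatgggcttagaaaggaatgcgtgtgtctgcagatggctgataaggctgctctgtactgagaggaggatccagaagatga

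Basal keratins were higher in MatDp(dist2) too, each by less than 2-fold. Krt5, the type II keratin of basal cells, had a MatDp(dist2) signal of 4406.9 and a PatDp(dist2) signal of 2795.7, 1.58-fold. Krt14, its type I partner, had 2359.3 and 1516.8 on its brightest probe set, 1.56-fold. These ratios were again close, with log2 values of 0.66 and 0.64. Krt15, a type I keratin of basal cells and of the hair follicle bulge, had 3184.1 and 1759.1, 1.81-fold. All 3 genes were thus higher in the same head, with a median log2 ratio of 0.66, and 0 of the 3 reached 2-fold. The 3 probe sets of Krt14 ran from 1.40-fold to 2.21-fold, and the one at 2.21-fold, with 1839.7 and 832.4, stands for the gene when probe sets with shared sequence are left out.

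Oral mucosa keratins were at least 2-fold higher in MatDp(dist2) for 5 of 6 genes (4.43% of all genes were), with a median log2 ratio of 1.12. Of the 6, 3 (Krt6b, Krt16 and Krt76) passed the floor in MatDp(dist2) alone, which fixes their direction. The median lies between Krt6a at 1.11 and the bound of Krt76 at 1.13. Krt13, the type I keratin of wet stratified mucosa such as that of tongue and cheek, had a MatDp(dist2) signal of 4420.2 and a PatDp(dist2) signal of 1260.4, 3.51-fold. Krt4, its type II partner, had 7550.7 and 3720.9 on its brightest probe set, 2.03-fold, and 4561.8 and 1354.9 on the other, 3.37-fold. Krt76, a type II keratin of the palate and gums, had 410.0 in MatDp(dist2) and 23.0, below the floor, in PatDp(dist2), at least 2.19-fold. With median centring the median was 0.96, and the log2 ratios of Krt6a and Krt4 were 0.90 and 0.81.

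The stress-inducible keratins, which are also made in oral mucosa, nail and hair follicle, were placed in the same group. Krt6a, the type II keratin induced at wounds, had signals of 4096.1 and 1895.8 on its brightest probe set, 2.16-fold. Krt6b, its close relative, had 613.9 in MatDp(dist2) and 159.9, below the floor, in PatDp(dist2), at least 3.28-fold. With the floor at the 70th percentile the log2 bound of Krt6b was 0.40. Krt16, their type I partner, had 218.0 and 31.4, and its bound of 1.17-fold was limited by the low signal in the brighter head. Krt6a and Krt6b are near-identical in sequence, and which of them each probe set reads was not tested. Promoter stretches of Krt13 and Krt76 are shown because only these 2 genes of the group have a window in the promoter table. Krt4, Krt6a, Krt6b and Krt16 have none. Both Krt13 and Krt76 passed 2-fold under every setting that gave them a value. Krt13 had a value in all 9 settings, and Krt76 in 7. Krt76 lay below the floor at the 70th percentile (465) in both heads. Its only probe set has the suffix _x_at, so it also drops out when probe sets with shared sequence are left out. RefSeq lists 2 start sites for Krt13, and both windows are given.
Krt13, chr11:100121567-100121686, - strand: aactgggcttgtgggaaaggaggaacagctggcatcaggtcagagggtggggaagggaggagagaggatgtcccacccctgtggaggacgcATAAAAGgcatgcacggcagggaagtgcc
Krt13, chr11:100120578-100120697, - strand: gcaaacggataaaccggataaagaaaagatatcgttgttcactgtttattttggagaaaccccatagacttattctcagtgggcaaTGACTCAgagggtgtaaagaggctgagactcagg
Krt76, chr15:101892921-101893040, - strand: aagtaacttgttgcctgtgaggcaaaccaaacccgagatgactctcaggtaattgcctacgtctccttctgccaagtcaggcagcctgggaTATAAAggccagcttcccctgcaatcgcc

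Simple epithelium keratins had lower signals in MatDp(dist2), all 4 of them by less than 2-fold. Krt18, the type I keratin of simple epithelia, had 1006.9 in MatDp(dist2) and 1754.7 in PatDp(dist2), 1.74-fold higher in the latter. Krt8, its type II partner, had 1387.5 and 1918.2 on its brightest probe set, 1.38-fold. Another Krt8 probe set was also lower in MatDp(dist2) (865.3 and 1248.8), and the last was nearly level (839.5 and 798.3). Krt7, a type II keratin of ducts and glands, had 531.1 and 715.1, 1.35-fold. Krt19, a type I keratin of ducts and of periderm, had 431.3 and 529.3, 1.23-fold. All 4 ratios point away from those of skin, mouth and hair, with a median log2 ratio of -0.45 against 0.02 for all genes. Each of the 4 lies within the 5th to 95th percentile of all genes measured (-0.86 to 0.95). Krt20, a keratin of gut epithelium and Merkel cells, lay below the floor in both heads, at 24.5 and 78.9. Krt18 passed 2-fold only with median centring, at a log2 ratio of -1.01. The stretches before Krt8 and Krt18 hold none of the 3 motifs on the gene's strand. A TATAAA of Krt8 starts at base -1 from the start site and runs past the stretch. Other stretches of this group, not printed, do hold motifs: that of Krt7 has ATAAAAG, and that of Krt20 has TATAAA and ATAAAAG.
Krt8, chr15:102004343-102004462, - strand: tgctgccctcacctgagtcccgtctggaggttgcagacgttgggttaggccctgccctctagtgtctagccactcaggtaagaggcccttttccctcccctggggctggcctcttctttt
Krt18, chr15:102028096-102028215, + strand: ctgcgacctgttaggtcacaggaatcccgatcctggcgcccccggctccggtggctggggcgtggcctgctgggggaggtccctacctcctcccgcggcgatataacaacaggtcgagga

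**Figure D3:**
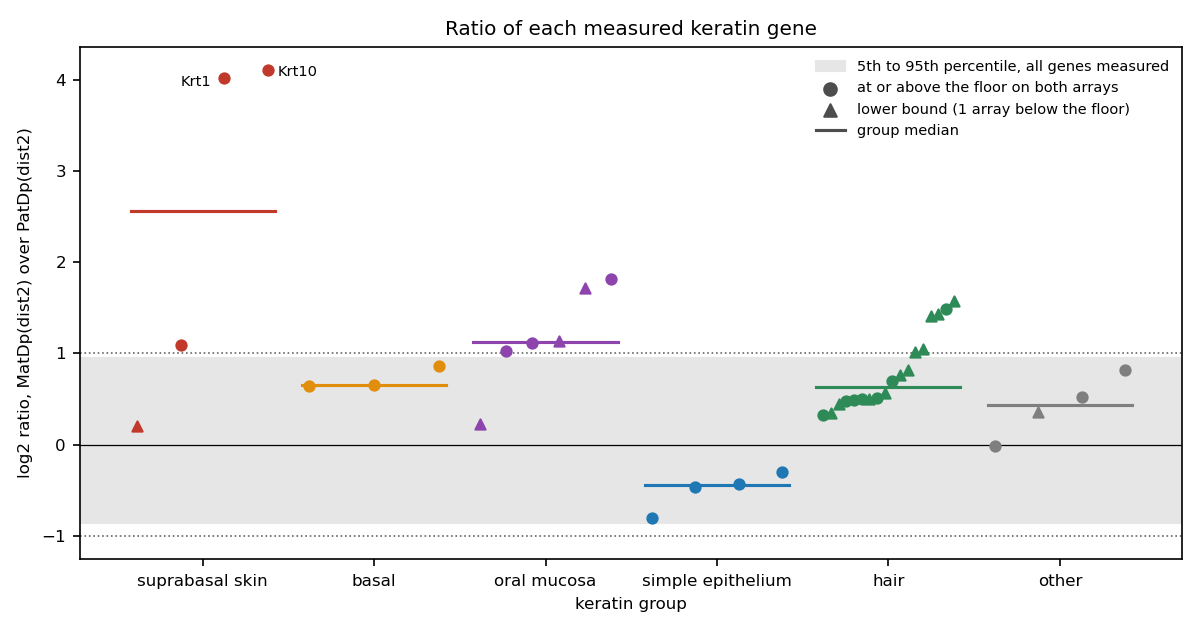
Log2 ratio of MatDp(dist2) over PatDp(dist2) (y axis) for the 39 measured keratin genes by group (x axis); circles are genes at or above the floor in both heads, triangles lower bounds, horizontal bars group medians, dotted lines 2-fold, and the grey band the 5th to 95th percentile of all genes measured (-0.86 to 0.95). Group medians run from -0.45 in simple epithelium to 2.56 in suprabasal skin; 14 keratins lie above the band and 0 below it.

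Hair keratins all had higher signals in MatDp(dist2), for all 22 genes before any floor was applied, where 54.3% of all 18193 genes had. Of 18 measured, 6 were at least 2-fold higher there (4.43% of all genes were) and 12 were closer, with a median log2 ratio of 0.63. Only 7 of the 18 were at or above the floor in PatDp(dist2), so most ratios of this group are bounds. Near the floor the direction alone says little, since 59.5% of the 5710 genes below the floor on both arrays also had the higher signal in MatDp(dist2).

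Keratins of the inner root sheath, the layers that mould the growing hair, were higher in MatDp(dist2) for 5 of 5 measured genes (52.0% of all genes were). Of these 5, 3 (Krt27, Krt28 and Krt71) passed the floor in MatDp(dist2) alone, which fixes their direction. The median log2 ratio of 1.05 is the bound of Krt71. Krt25, a type I keratin of the sheath, had a MatDp(dist2) signal of 755.7 and a PatDp(dist2) signal of 268.8, 2.81-fold. Krt27, also type I, had 497.7 and 129.0, at least 2.66-fold, and Krt28, the next gene on Chr 11, had 277.7 and 154.6, at least 1.48-fold. Among type II partners, Krt71 had 386.5 and 175.9, at least 2.07-fold, and Krt73 had 459.1 and 321.4, 1.43-fold. The PatDp(dist2) signal was above the floor for Krt25 and Krt73 alone. Krt26 (88.4 and 17.9) and Krt72 (89.9 and 67.8) lay below it in both heads. With the floor at the 70th percentile Krt25 and Krt27 had log2 bounds of 0.70 and 0.10, under 2-fold. The group median fell under 2-fold with median centring (0.92), the loess fit (0.99), quantile normalization (0.95), an offset of 100 (0.82), the floor at the 30th percentile (0.84) and the floor at the 70th percentile (0.40).

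Keratins of the hair shaft, the hard keratins, had a median log2 ratio of 0.60 over 10 measured genes. Of these 10, 3 were at least 2-fold higher in MatDp(dist2) (4.43% of all genes were). Krt36, a type I keratin of hair that is also made in the filiform papillae of the tongue, had 559.0 in MatDp(dist2) and 94.5 in PatDp(dist2), at least 2.99-fold. Krt84, a type II keratin of hair cuticle and tongue papillae, had 505.2 and 68.3, at least 2.70-fold. Krt34, a type I keratin of the shaft cortex, had 379.2 and 10.8, at least 2.03-fold, a bound that fell under 2-fold with median centring, quantile normalization or the loess fit. In each of these 3 the PatDp(dist2) signal lay below the floor, so the bound is smaller than the ratio of the deposited signals. With the floor at the 70th percentile the log2 bounds of Krt36 and Krt84 were 0.27 and 0.12, under 2-fold.

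The other shaft keratins had bounds or ratios of 1.27-fold to 1.70-fold. Measured on both arrays were Krt81 (797.9 and 492.5, 1.62-fold), Krt35 (375.5 and 266.2, 1.41-fold) and Krt32 (356.4 and 253.5, 1.41-fold), and none of them reached 2-fold. Krt83 (318.2 and 15.8), Krt33b (264.5 and 36.2), Krt31 (254.4 and 142.0) and Krt86 (238.3 and 27.9) were seen in MatDp(dist2) alone. Shaft keratins such as Krt81, Krt83 and Krt86 are close relatives in sequence, and whether their probe sets read each other's transcripts was not tested. With the floor at the 30th percentile the median of the shaft group rose to 1.67, and with an offset of 100 to 1.41. It fell to 0.27 with the floor at the 70th percentile, 0.44 with median centring and 0.55 with the loess fit. Quantile normalization gave 0.50, as did leaving out probe sets whose suffix marks shared sequence or several transcripts. The lower floor raised the bounds, and 5 of the 7 shaft keratins with a bound, Krt33b, Krt34, Krt83, Krt84 and Krt86, still had PatDp(dist2) signals below it. Krt33a (77.2 and 3.3) and Krt82 (56.2 and 14.3) lay below the floor in both heads.

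Keratins of the companion layer and the hair canal were higher in MatDp(dist2), and 0 of the 3 had a ratio or bound of 2-fold. Krt75, a type II keratin of the companion layer, had 329.8 and 114.3, at least 1.76-fold higher in MatDp(dist2). Krt79, a marker of the hair canal, had 1110.3 and 798.1, 1.39-fold, and Krt17, a type I keratin of hair follicle and other skin appendages, had 911.3 and 727.5, 1.25-fold. These 2 were well above the floor in both heads, so neither ratio is limited by it. The stretch of Krt36, which had the largest bound of the hair group, holds none of the 3 motifs and is not printed. Promoter stretches of 4 other hair keratins, each with a marked motif, are shown. They are from the inner root sheath on Chr 11 (Krt25 and Krt27), the shaft on Chr 11 (Krt34) and the shaft on Chr 15 (Krt84).
Krt25, chr11:99322952-99323071, - strand: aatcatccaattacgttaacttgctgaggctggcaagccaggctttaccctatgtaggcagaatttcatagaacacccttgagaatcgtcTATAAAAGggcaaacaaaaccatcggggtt
Krt27, chr11:99351119-99351238, - strand: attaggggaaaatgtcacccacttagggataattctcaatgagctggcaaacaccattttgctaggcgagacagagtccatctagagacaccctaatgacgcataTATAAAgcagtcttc
Krt34, chr11:100041555-100041674, - strand: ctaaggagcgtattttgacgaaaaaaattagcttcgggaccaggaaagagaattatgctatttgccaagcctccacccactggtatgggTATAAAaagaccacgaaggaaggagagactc
Krt84, chr15:101532821-101532940, - strand: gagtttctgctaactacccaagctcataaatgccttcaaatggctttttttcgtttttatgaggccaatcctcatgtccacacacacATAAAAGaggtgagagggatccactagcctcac

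The TATA box was frequent in front of keratin genes. RefSeq's table held 33 promoter windows for 32 of the 48 genes, each of 300 bases, and TATAAA was present on either strand in 18 of the 33 (54.5%), against 13.6% of 32851 windows of all genes. On the gene's strand and starting 15 to 45 bases before the start site, it was present in 13 of 33 (39.4%), against 2.25%. With ATAAAAG, which overlaps TATAAA where both occur and was added after the sequences had been read, this came to 19 of 33 (57.6%), against 2.69%. Hair keratins had it in 12 of 16 windows.

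Other motifs had shares in keratin windows closer to those in all windows. TGANTCA was found in 2 of 33 windows (6.06%), both of Krt13, against 7.81% of all windows. GCCNNNGGC, the motif of AP-2, was found in 4 of 33 (12.1%), against 16.6%. CCAAT was found in 14 of 33 (42.4%), against 37.4%. All were searched on both strands. A match describes the letters and is not evidence of a bound factor, and a window without a match says only that these letters are absent from it.

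Neighbouring genes of the keratin clusters could have very different ratios. Type I keratins other than Krt18 lie on Chr 11, and type II keratins and Krt18 on Chr 15. The median log2 ratio was 0.51 over 20 measured type I genes and 0.82 over 19 type II genes, with 6 and 8 genes at least 2-fold higher in MatDp(dist2). On Chr 11, Krt10 with its log2 ratio of 4.10 lies between Krt28, with a bound of 0.57, and Krt12, a keratin of the cornea below the floor. On Chr 15, Krt1 at 4.02 lies between Krt2, below the floor, and Krt77, with a bound of 0.20. At the end of that cluster Krt78 at 1.10 is followed by Krt8 at -0.47 and Krt18 at -0.80. Krt19 at -0.30 likewise lies between the basal keratins Krt15 at 0.86 and Krt14 at 0.64.

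**Figure D4:**
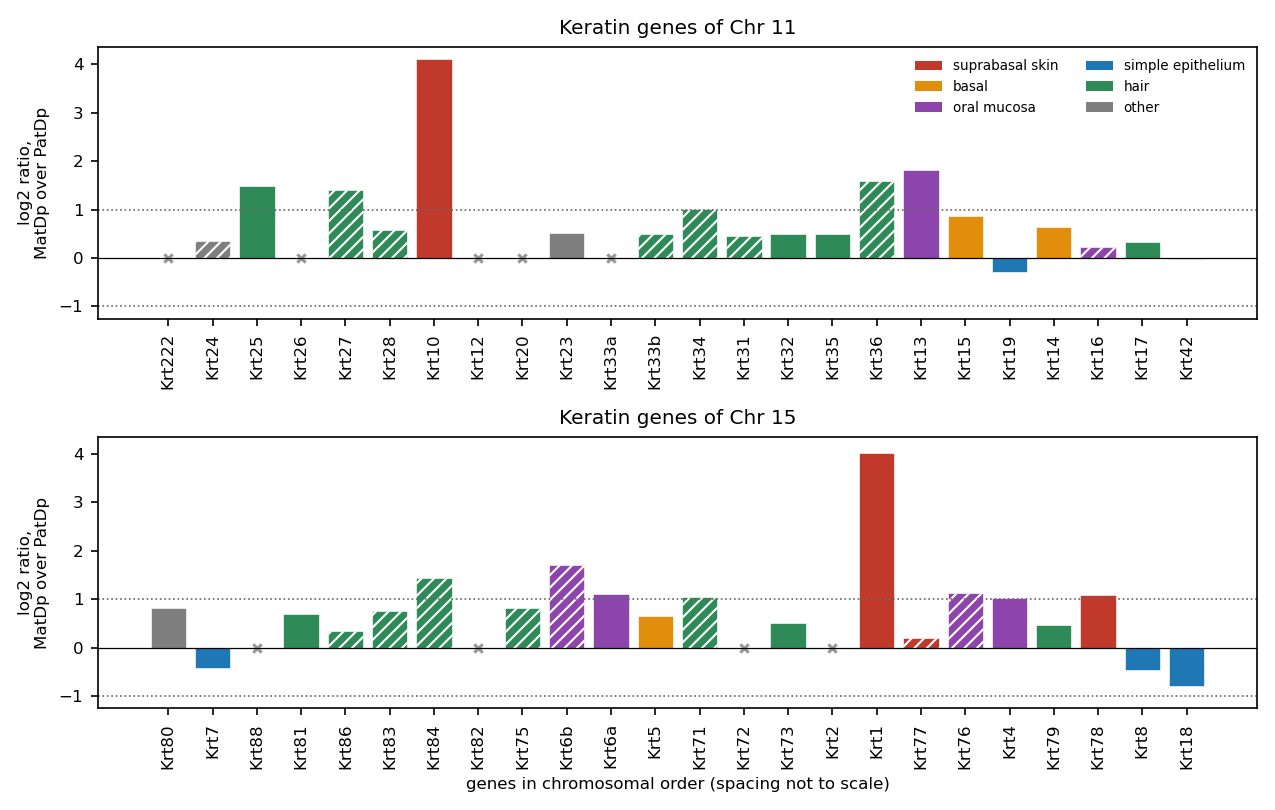
Log2 ratio of MatDp(dist2) over PatDp(dist2) (y axis) for the keratin genes of Chr 11 (top, 24 genes) and Chr 15 (bottom, 24 genes) in chromosomal order (x axis, spacing not to scale), coloured by group; hatched bars are lower bounds, crosses are genes below the floor in both heads, and dotted lines mark 2-fold. Krt10 (4.10) and Krt1 (4.02) stand beside neighbours that have only a lower bound or lie below the floor, and Krt8 and Krt18 close the Chr 15 cluster with ratios below 0.

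Partners that form one filament had similar ratios in some pairs. Type II minus type I, the log2 ratios differed by -0.08 for Krt1 and Krt10 and by 0.02 for Krt5 and Krt14. The gap was 0.33 for Krt8 and Krt18 and -0.79 for Krt4 and Krt13. The gap of Krt4 and Krt13 depends on the probe set taken for Krt4, whose other probe set gave a log2 ratio of 1.75 against 1.81 for Krt13. For Krt6a and Krt16 the gap of 0.89 includes a bound for Krt16.

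Probe sets of the same gene gave the same direction in 4 of the 5 genes with at least 2 of them measured. Krt6a spread the most, from 2.16-fold to 6.13-fold over 3 probe sets. The highest value came from the probe set with the suffix _x_at, with a MatDp(dist2) signal of 1518.6 and a PatDp(dist2) signal of 247.7. That suffix marks probes that also match other sequences. Krt13 ran from 2.21-fold to 3.51-fold over 3 probe sets, all higher in MatDp(dist2). Krt8 was the exception: its brightest probe set (1387.5 and 1918.2) and a dimmer one (865.3 and 1248.8) were lower in MatDp(dist2), and the last was nearly level, with 839.5 and 798.3.

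**Figure D5:**
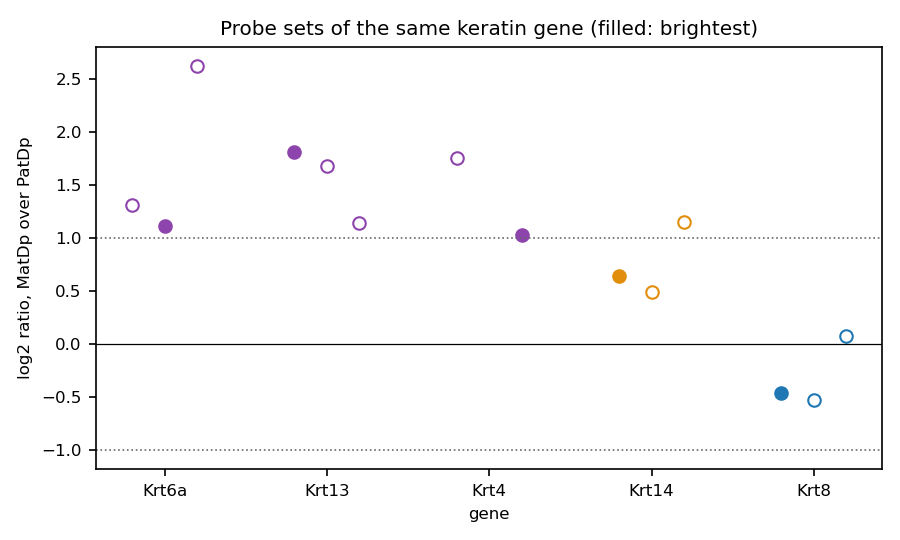
Log2 ratio of MatDp(dist2) over PatDp(dist2) (y axis) for each measured probe set of the 5 keratin genes with more than 1 of them (x axis), filled for the brightest probe set of the gene; dotted lines mark 2-fold. Krt6a, Krt13, Krt4 and Krt14 stay above 0 on every probe set, and Krt8 has 1 of 3 slightly above 0, at 0.07.

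The remaining keratins fit none of these epithelia or several. Krt80, a type II keratin of several epithelia, had a MatDp(dist2) signal of 839.4 and a PatDp(dist2) signal of 475.2, 1.77-fold. Krt23 had 597.6 and 416.0, 1.44-fold, and Krt24 had 239.1 and 139.2, at least 1.28-fold. None of these passed 2-fold. Krt12, with 186.9 and 60.6, lay just under the floor in MatDp(dist2), and Krt222 (173.8 and 140.8) and Krt88 (21.5 and 140.3) were below it in both. In all, 9 keratin genes were below the floor in both heads, 6 of them with the higher signal in MatDp(dist2).

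Genes that work with keratins in stratified epithelia were read beside them, from lists drawn up with the keratin groups. Cornified envelope genes, which build the dead outer layer of skin, were at least 2-fold higher in MatDp(dist2) for 13 of 14 measured (4.43% of all genes were). The median log2 ratio was 3.08, bounds included. Of the 14, 6 passed the floor in MatDp(dist2) alone, which fixes their direction. The other 8, measured in both heads, were all higher in MatDp(dist2). Flg had signals of 4959.2 and 49.9 (at least 26.5-fold), Lor 10600.0 and 517.4 (20.5-fold) and Rptn 3034.1 and 160.9 (at least 16.2-fold).

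Desmosome and hemidesmosome genes, whose proteins anchor keratin filaments to the cell membrane, were split. Of 18 measured, 4 were at least 2-fold higher in MatDp(dist2) (4.43% of all genes were) and 0 in PatDp(dist2), with a median log2 ratio of 0.49. The desmosomal cadherins Dsc1 (1835.4 and 156.9, at least 9.81-fold) and Dsg1a (649.4 and 120.1, at least 3.47-fold), both of upper epidermal layers, and the envelope protein Evpl (735.6 and 224.8, 3.27-fold) differed the most. The fourth was Pkp3, a plaque protein (614.9 and 293.4, 2.10-fold), and 6 genes were lower in MatDp(dist2), all by less than 2-fold.

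Regulators of keratinocytes differed little by comparison. Of 15 measured, 1 was at least 2-fold higher in MatDp(dist2) and 0 in PatDp(dist2), with a median log2 ratio of 0.24, a count near the 4.43% of all genes. Tfap2b, an AP-2 transcription factor also active outside skin, had 1227.8 and 392.7 (3.13-fold), Cebpa had 1475.5 and 2718.2 (1.84-fold higher in PatDp(dist2)), and Sfn had 323.7 and 97.3 (at least 1.73-fold). Trp63, the master regulator of stratified epithelia, had 1114.0 and 816.4, 1.36-fold.

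In the hair follicle list without keratins, 3 of 11 measured genes were at least 2-fold higher in MatDp(dist2) (4.43% of all genes were), with a median log2 ratio of 0.33. Tchh, a structural protein of the inner root sheath, had 922.5 and 119.8 (at least 4.93-fold), Lhx2, a transcription factor of follicle, brain and eye, had 924.2 and 252.6 (3.66-fold), and Lef1 had 439.9 and 177.3 (at least 2.35-fold). Keratin-associated proteins, which embed the filaments of the hair shaft, were measured for 19 of 38 genes. Of these 19, 17 were seen in MatDp(dist2) alone, so their direction is fixed by the floor, and the list's count and median are not read as a result. The largest values were those of Krtap8-1 (641.3 and 82.1, at least 3.43-fold), Krtap13-1 (568.6 and 101.8, at least 3.04-fold) and Krtap12-1 (478.1 and 220.3, 2.17-fold). Krtap12-1 and Krtap10-4 (285.9 and 220.6, 1.30-fold) were the only 2 measured in both heads.

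Markers of other tissues also differed between the heads. Of all 12483 genes measured, 52.0% were higher in MatDp(dist2) and 5997 genes were lower there. The neuron list was higher in MatDp(dist2) for 8 of 8 genes, 6 of them at least 2-fold (4.43% of all genes were), with summed signals of 30512.7 and 13522.9 and a median log2 ratio of 1.14. Skeletal muscle genes were lower there for 8 of 8, with sums of 94238 and 118608 and a median of -0.35. Dermis and fibroblast genes were level, with 4 of 9 higher, sums of 77776.9 and 82749.5 and a median of -0.02. Cartilage and bone genes had 5 of 7 higher, sums of 16824.3 and 14548.0 and a median of 0.37. Of these 5, Matn1 (192.7 and 22.9) passed the floor in MatDp(dist2) alone, which fixes its direction. The 2 measured red blood cell genes went in opposite directions, with sums of 2425.7 and 2470.2 over 3 genes. No listed marker had a signal of 0. The part of these tissue differences in the keratin ratios was not tested.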

How the data were processed

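Whole head RNA of 1 MatDp(dist2) and 1 PatDp(dist2) newborn sample was measured on 1 array each. The authors deposited linear-scale intensity signals for 45101 probe sets, made with MAS5 and GCOS (versions not given) per the submitters' processing notes. The mean without the lowest and highest 2% was 500.002 on both arrays, and MAS5 signals are noisy at low values. Names came from the platform annotation and were updated through gene IDs in RefSeq (GRCm38.p6). Of 45101 probe sets, 34945 had 1 symbol (34741 with a RefSeq entry), 932 several, 9160 were not listed and 64 were controls. For each gene the brightest probe set by mean log2 signal was used. The floor was the median of the 2 arrays' 50th percentiles.

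A gene was called past a 2-fold difference, bounds included. No test was possible. The functions were checked on simulated arrays. All keratin genes are named, and the 3 largest differences of each epithelial list; Trp63, Vim and Epcam were added after their values were seen. Members and lists were chosen with earlier results of these data known, so they give no independent support. Alternatives changed the scaling, floor, offset, probe set choice and threshold. Promoter windows came from RefSeq (GRCm38.p6). Python 3.11.15, pandas 2.3.3 and statsmodels 0.14.6 (lowess) were used.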

Additional observations from a re-analysis of the deposited data

How the results depend on the processing

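The count of keratin genes at least 2-fold higher in MatDp(dist2), 14, was 9 with median centring, 5 with the higher floor (70th percentile, 24 keratins measured) and 4 at a 3-fold threshold, where 1.17% of all genes measured passed. It lay between 11 and 20 under the other 7 settings. With median centring, which moved the median log2 ratio of all genes from 0.02 to -0.19, 1 keratin was at least 2-fold higher in PatDp(dist2). The median of oral mucosa keratins was 0.96 with median centring. The median of hair shaft keratins was 1.67 with the lower floor (30th percentile) and 1.41 with the offset of 100. It was 0.27 with the higher floor, 0.44 with median centring, 0.50 with quantile normalization and 0.55 with the loess fit. The median of inner root sheath keratins was 0.84 with the lower floor, 0.40 with the higher floor, 0.92 with median centring, 0.95 with quantile normalization, 0.99 with the loess fit and 0.82 with the offset of 100. The medians of suprabasal, basal and simple epithelium keratins kept their direction and their side of 2-fold under all 9 settings. Of the 14 genes, 4 (Krt1, Krt10, Krt13 and Krt76) passed 2-fold under every setting that gave them a value. Krt1 and Krt13 had a value in all 9 settings, Krt10 in 8 and Krt76 in 7. Only 1 measured keratin, Krt8, changed sign, at 0.07 with its dimmest measured probe set. No paired analysis was possible because each genotype has 1 array, and for the same reason no replicate could be left out. Signals near the floor limit the hair keratins, of which 11 of 18 measured have bounds.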

Other observations

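Intermediate filament genes other than keratins had no common direction. Of 14 measured, 2 were at least 2-fold higher in MatDp(dist2) (4.43% of all genes were) and 0 in PatDp(dist2), with a median log2 ratio of -0.32. Ina, a neuronal filament protein, had a MatDp(dist2) signal of 5269.7 and a PatDp(dist2) signal of 2321.7 (2.27-fold), and Lmnb1, a lamin of the nuclear envelope, had 2314.8 and 1055.1 (2.19-fold). Prph, a filament protein of peripheral neurons, had 480.4 and 941.9, 1.96-fold higher in PatDp(dist2). Vim, the filament protein of mesenchymal cells, had 11912.6 and 15723.7.

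The list drawn up for simple and glandular epithelium, without keratins, was nearly level by its median. Some of its genes, such as Cdh3, are also made in other epithelia. Of 13 measured, 1 was at least 2-fold higher in MatDp(dist2) (4.43% of all genes were), 7 were higher in MatDp(dist2) and 6 in PatDp(dist2), with a median log2 ratio of 0.07. Rab25, a trafficking protein of epithelia, had 558.7 and 266.6 (2.10-fold), Cldn4, a tight junction protein, had 285.2 and 185.1, and Cdh3, the cadherin of basal and follicle cells, had 266.3 and 87.8. Epcam, an adhesion protein of simple epithelia, had 997.2 and 1153.2.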
